A study of Danio rerio with 8 samples.

Results

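The genes described here serve the uptake of apolipoprotein E bearing lipoproteins and the export of cholesterol. They are LRP1 (ENSDARG00000029146), apoeb (ENSDARG00000040295), abca1b (ENSDARG00000079009) and ABCA1 (ENSDARG00000074635), 4 of the 10479 genes in the deposited table. They were chosen by name, after their difference between the populations compared here was known from these same values. Their difference between populations is therefore given as a description, with standard errors and no p-value, and it supports nothing by itself. No other identifier in the deposited table carried the symbol LRP1, and the capital symbol ABCA1 is written after the human gene. The gene lrp1ba (ENSDARG00000094171), whose symbol begins with the same letters, is among the further receptors below. It is not taken as a second copy of LRP1, since the symbol can also be read as a copy of a separate gene, LRP1B.

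RNA was sequenced from cells sorted from cryoinjured hearts of adult Tg(wt1b:eGFP; mpeg1:mCherry) zebrafish aged 6 to 9 months, at 4 days after injury. One population was double positive for mpeg1:mCherry and wt1b:eGFP, and the other was positive for mpeg1:mCherry alone, with 4 libraries of each. All fish carried both transgenes and the injury, so the populations differ by fluorescence and not by genotype, and no uninjured heart is among the groups used here. Each library was a pool of 5 to 7 hearts, and libraries 1 and 2 of either population were made in batch 1 and libraries 4 and 5 in batch 2. A gate on mCherry collects every cell in which the mpeg1 promoter is active, and a gate on eGFP every cell with activity of the wt1b promoter.

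Macrophages that clear dead tissue take in large amounts of lipid and cholesterol. LRP1 is a large endocytic receptor of the LDL receptor family that binds apolipoprotein E and many other ligands, and apoeb encodes a zebrafish apolipoprotein E, which coats lipoprotein particles and is secreted by macrophages. In mammals, ABCA1 is the membrane transporter that hands cellular cholesterol and phospholipid to lipid-poor apolipoproteins, and liver X receptors induce its gene when sterols accumulate. abca1b is a zebrafish paralog of the same transporter gene.

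The column totals of the normalized counts lay between 868929 and 1021901 in double positive and between 803220 and 951137 in single positive libraries, and the read depth behind them is unknown. In double positive library 1, 42.3% of genes had a value under 1, against 10.7% to 19.7% in the other 7 libraries. The transcript of wt1b, which drives eGFP, had 41.4, 13.6, 63.1 and 22.7 normalized counts in double positive libraries 1, 2, 4 and 5 and 0.469, 0.203, 0.122 and 0.122 in single positive libraries 1, 2, 4 and 5. Of the MPEG1 identifiers, ENSDARG00000043093 had 191 to 601 in double positive and 4.98 to 89.5 in single positive libraries, and ENSDARG00000055290 had 167 to 452 in double positive and 302 to 536 in single positive libraries. The 19 identifiers matched to macrophage markers, such as marco, the C1q genes and MPEG1, summed to between 3845 and 7983 in double positive and between 1239 and 2742 in single positive libraries. Of the 19, several of them paralogs of MFAP4, 13 rose and 0 fell in double positive cells, while 3.88% of all tested genes were higher and 2.81% lower. Macrophage markers were unevenly present in single positive cells. In single positive library 4, marco had 2.08 and c1qa, c1qb and c1qc had 1.52, 2.48 and 0.244, against 300.5 for cd68 and 389 for SPI1. csf1rb averaged 49.9 in double positive and 125 in single positive cells (log2 fold change -1.23, limma adjusted p = 0.1502). The 5 B lymphocyte markers matched summed to between 12.1 and 49.6 in double positive and between 215 and 662 in single positive libraries, and 4 of the 5 (PAX5, cd79a, ighm and cd37) fell, with values from 0.0426 to 0.584 in double positive libraries. The fifth, cd22, had 10.9 to 48.8 in double positive and 0.156 to 5.13 in single positive libraries (log2 fold change 3.65, limma adjusted p = 0.0706) and made up most of the double positive sum. In bulk samples, fewer cells of a type and less RNA per cell cannot be told apart, and the part that the mix of cells has in any value below was not tested.

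All 4 genes were higher in double positive cells. The ratio of double positive to single positive means was 22.4 for LRP1 and 26.1 for apoeb, against 2.63 for abca1b and 1.99 for ABCA1. In each of the 4, the populations did not overlap and the double positive one was the upper, a separation that 7.12% of the 10127 tested genes also showed. All 4 passed the filter on low values, but 3 of the 4 single positive libraries had apoeb values under 1, so apoeb passed through the population in which it is high.

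LRP1, the receptor, had 594, 713, 1581 and 1339 normalized counts in double positive libraries 1, 2, 4 and 5 and 86.9, 69.0, 11.6 and 21.5 in single positive libraries 1, 2, 4 and 5. The lowest double positive library was 6.83 times the highest single positive library. Double positive libraries 4 and 5 held the highest values and single positive libraries 4 and 5 the lowest, so the populations stood farther apart in batch 2. The means were 1057 ± 478 in double positive and 47.3 ± 36.4 in single positive cells (SD, n = 4 each). On the log2(value + 1) scale, which understates changes of low genes, the fold change was 4.74 (SE 0.50). Increases were larger in 0.286% of tested genes, a place drawn from the difference that was known when the gene was chosen.

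The ligand gene apoeb had 39.8, 72.4, 154 and 51.8 normalized counts in double positive libraries 1, 2, 4 and 5 and 0.779, 10.9, 0.354 and 0.125 in single positive libraries 1, 2, 4 and 5. Single positive library 2 stood apart from the other single positive libraries, and the lowest double positive library was still 3.64 times its value. Means were 79.5 ± 51.5 in double positive and 3.05 ± 5.27 in single positive cells (SD, n = 4 each). The log2 fold change was 4.88 (SE 1.06) with a pseudocount of 1. Increases were larger in 0.197% of tested genes at that setting, a place that again restates the known difference. The fold change of apoeb was 3.40 with a pseudocount of 5 and 5.38 with a pseudocount of 0.5, because the single positive values lie near or under the pseudocount. The deposited table holds no value of 0, so such low values may come from the normalization and not from reads, and how far apoeb is expressed in single positive cells cannot be read from them.

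The transporter gene abca1b had 1014, 758, 1144 and 1246 normalized counts in double positive libraries 1, 2, 4 and 5 and 503, 329, 189.5 and 563 in single positive libraries 1, 2, 4 and 5. The populations came close, since the lowest double positive value was 1.35 times the highest single positive one. Means were 1040.3 ± 211 in double positive and 396 ± 169.7 in single positive cells (SD, n = 4 each), with a log2 fold change of 1.49 (SE 0.30). It was 1.10 without single positive library 4, the lowest library.

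ABCA1 had 566, 501, 513 and 581 normalized counts in double positive libraries 1, 2, 4 and 5 and 317, 357, 162 and 249 in single positive libraries 1, 2, 4 and 5. It was the most even of the 4 genes in double positive cells, with a coefficient of variation of 7.21%, against 20.3% for abca1b, 45.3% for LRP1 and 64.7% for apoeb. Means were 540.4 ± 39.0 in double positive and 271 ± 85.4 in single positive cells (SD, n = 4 each), with a log2 fold change of 1.05 (SE 0.25). In single positive cells each gene varied more, with coefficients of variation of 31.5% for ABCA1, 42.9% for abca1b, 77.1% for LRP1 and 173% for apoeb. Increases larger than that of abca1b were found in 9.86% of tested genes, and larger than that of ABCA1 in 15.9%.

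**Figure D1:**
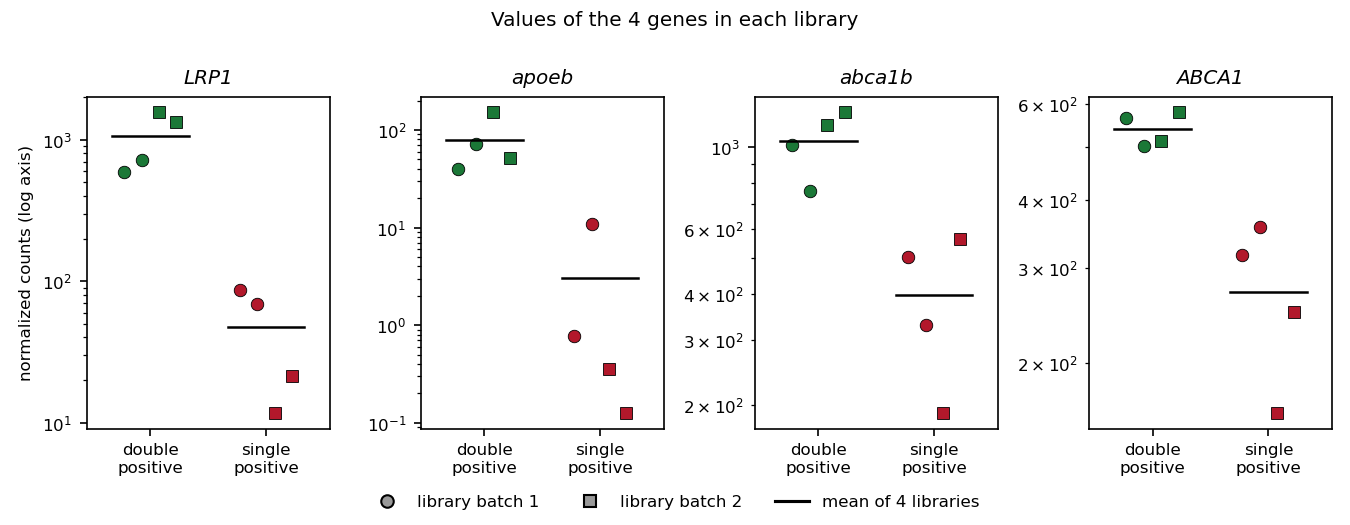
Normalized counts of LRP1, apoeb, abca1b and ABCA1 on log axes with different ranges, with 4 double positive libraries left and 4 single positive libraries right in each panel; circles are batch 1, squares batch 2 and bars the mean. The double positive points lie above the single positive ones in each panel, by the widest margin for LRP1 and the narrowest for abca1b.

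abca1b and ABCA1 are paralogs. The submitters' processing notes list RSEM 1.2.3, but how reads fitting both genes were divided cannot be seen in the deposited values, so their split is uncertain. The ratio of abca1b to ABCA1, which takes no account of transcript length, was 1.79, 1.51, 2.23 and 2.14 in double positive libraries 1, 2, 4 and 5 and 1.59, 0.921, 1.17 and 2.26 in single positive libraries 1, 2, 4 and 5. The populations overlapped in this ratio. Its mean log2 value was 0.92 ± 0.26 in double positive and 0.49 ± 0.56 in single positive libraries (SD, n = 4 each), so the difference of 0.43 was smaller than the spread among single positive libraries.

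Over all tested genes the median log2 difference was -0.16. It was 0.12 after median centring, -0.26 with columns scaled to the same total and -0.037 after quantile normalization. With median centring the fold changes were 5.02 for LRP1, 5.16 for apoeb, 1.77 for abca1b and 1.33 for ABCA1. With columns scaled to the same total they were 4.63, 4.82, 1.37 and 0.94 in the same order. Quantile normalization gave 4.61, 4.99, 1.41 and 0.89. Leaving out 1 library at a time gave log2 fold changes from 4.24 to 5.15 for LRP1, 4.31 to 5.70 for apoeb, 1.10 to 1.72 for abca1b and 0.85 to 1.16 for ABCA1.

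Whether the population difference itself differed between the library batches is a contrast that the choice of genes did not use. For LRP1 the log2 fold change was 3.05 in batch 1 and 6.43 in batch 2. The difference between the batches was 3.38 (SE 0.55, limma interaction adjusted p = 0.0384 over all tested genes, 95% interval 2.19 to 4.57). Batch 2 minus batch 1 was 1.16 in double positive cells and -2.22 in single positive cells on the log2 scale. Opposite shifts were common in the table, with a Pearson r of -0.70 between the shifts of both populations over 10479 genes, which are not independent replicates. Whether the authors adjusted the values for batch is not stated, and an adjustment of the batch means would make the shifts opposite, so the share of either population in the batch difference cannot be read from these values. Such an interaction was called in 10 of 10127 genes (0.0987%), each with the higher fold change in batch 2, and 971 had an unadjusted p under 0.05. The call for LRP1 was lost with columns scaled to the same total (adjusted p = 0.0588), with median centring (adjusted p = 0.1496), without the mean-variance trend (adjusted p = 0.252), and without double positive library 1, 4 or 5 or single positive library 1, 2 or 4 (adjusted p from 0.0640 to 0.524). The call was kept with quantile normalization (limma interaction adjusted p = 0.00985), where 48 of all tested genes were called. The size of the interaction lay between 2.79 and 3.80 under the alternatives run, and the sign of the population difference was the same in both batches.

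The batch differences of abca1b and ABCA1 had the same sign and did not pass the test. For apoeb the fold change was 3.57 in batch 1 and 6.20 in batch 2, and no test of the difference is given because its single positive values lie mostly under the pseudocount. The fold change of abca1b was 1.11 in batch 1 and 1.87 in batch 2 (difference 0.76, 95% interval -0.50 to 2.01, limma adjusted p = 0.689), and without single positive library 4 the difference was -0.024. That of ABCA1 was 0.66 in batch 1 and 1.44 in batch 2 (difference 0.78, 95% interval -0.14 to 1.70, limma adjusted p = 0.581).

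Markers of cell types shifted between batches too. Of the 19 macrophage marker identifiers, 18 had a higher log2 fold change in batch 2, and the median was 2.47 for batch 1 against 5.19 for batch 2. In single positive cells the summed macrophage markers were 2742 and 2281 in libraries 1 and 2 and 1239 and 1556 in libraries 4 and 5, the same order of batches as for LRP1. All 8 epicardial or fibroblast marker identifiers also had a higher fold change in batch 2. They include wt1b, which drives the eGFP of the sort, and COL1A1 under more than 1 identifier, so they are not 8 independent markers. The median of the 8 was -2.33 for batch 1 and 3.15 for batch 2. Their sums in libraries 1, 2, 4 and 5 were 140.4, 529, 1380.2 and 692 in double positive cells and 914, 1228, 143 and 184 in single positive cells. A higher fold change in batch 2 was not particular to these 2 lists. It was found for 4 of 4 neutrophil, 4 of 4 endothelial and 2 of 2 thrombocyte marker identifiers. It was also found for 4 of 5 cardiomyocyte ones, but for only 2 of 5 B lymphocyte ones. Over all tested genes the median fold change was -0.40 in batch 1 and 0.077 in batch 2. The share of all tested genes with a higher fold change in batch 2 was not counted. The counts of markers above therefore have no background to be read against and are a description only. The part of any of these shifts in the batch difference of LRP1 was not tested.

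**Figure D2:**
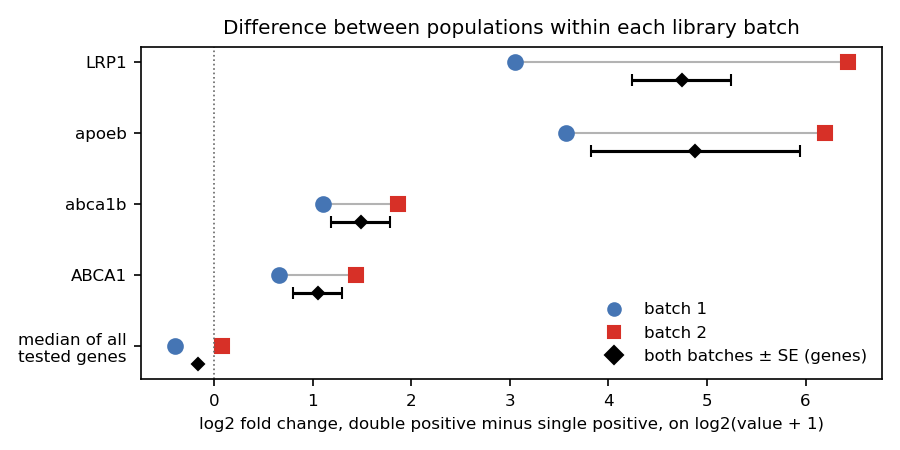
Log2 fold change of double positive over single positive cells on the log2(value + 1) scale for LRP1, apoeb, abca1b, ABCA1 and the median of all tested genes; blue circles are batch 1, red squares batch 2 and black diamonds both batches, with bars of 1 SE for the 4 genes. The batch 2 point lies to the right of the batch 1 point in each row, by 3.38 for LRP1 and by 0.76 for abca1b.

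Other genes of cholesterol and apolipoprotein handling moved in part. Of 68 tested genes in 8 lists, 7 rose and 1 fell (limma, adjusted p under 0.05), which is 10.3% and 1.47% of them. Over all tested genes 393 were higher and 285 lower, or 3.88% and 2.81%. With median centring 10 list genes rose and 1 fell, and 542 of all tested genes were higher and 220 lower. The lists were written with earlier results of these data known, so these shares are a description only. They hold 123 gene names, of which 63 matched an identifier, names of the chosen genes included. The median log2 fold change of the 68 genes was 0.042, against -0.16 over all tested genes. Among the risen genes were DAB2, NPC1, NPC2 ENSDARG00000096979, SOAT1, plin3 and rxrga, and the fallen gene was ABCA7.

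Of 10 further receptors for apolipoproteins and lipoproteins, 0 were called, with 2 at an unadjusted p under 0.05 and a median log2 fold change of -0.83. Those of highest mean normalized count, not set per length, were lrp10, with 79.9 ± 38.9 in double positive and 103 ± 24.0 in single positive cells, and LRP5, a Wnt co-receptor of the same family, with 76.4 ± 23.8 in double positive and 33.1 ± 24.9 in single positive cells (SD, n = 4 each). Their log2 fold changes were -0.56 (limma adjusted p = 0.567) and 1.43 (limma adjusted p = 0.186). That of lrp10 was -0.052 without double positive library 1, where lrp10 was lowest. Also among the 10, lrp1ba averaged 0.859 ± 0.834 in double positive and 5.48 ± 8.34 in single positive cells (SD, n = 4 each). Its log2 fold change was -1.11 (limma adjusted p = 0.547).

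Among 7 receptor adaptors and regulators, 1 rose. DAB2, an endocytic adaptor of LDL receptor family members, had 126, 215, 349 and 288 normalized counts in double positive libraries 1, 2, 4 and 5 and 25.6, 85.0, 9.86 and 12.5 in single positive libraries 1, 2, 4 and 5. Its populations did not overlap, and as for LRP1 the batch 2 libraries were the highest double positive and the lowest single positive ones. DAB2 rose by 3.25 on the log2 scale (SE 0.57, limma adjusted p = 0.00211). DAB2 kept its call without any single library, but not without the mean-variance trend (adjusted p = 0.0649).

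Lysosomal and intracellular cholesterol handling held 3 risen genes of 16. NPC1 and NPC2 encode the proteins that move cholesterol out of the lysosome. NPC1 had 248, 129.9, 149 and 199 normalized counts in double positive libraries 1, 2, 4 and 5 and 60.9, 56.0, 33.8 and 86.3 in single positive libraries 1, 2, 4 and 5 (log2 fold change 1.63, SE 0.39, limma adjusted p = 0.0177). Its fold change was nearly the same in both batches, 1.605 in batch 1 and 1.65 in batch 2. NPC2 ENSDARG00000096979 averaged 74.6 ± 14.1 in double positive and 12.9 ± 12.4 in single positive cells (SD, n = 4 each) and rose by 3.17 on the log2 scale (limma adjusted p = 0.0290). A paralog, NPC2 ENSDARG00000090912, had a log2 fold change of 0.82 (limma adjusted p = 0.213).

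SOAT1, which esterifies cholesterol for storage, had 97.7, 324, 319 and 344 normalized counts in double positive libraries 1, 2, 4 and 5 and 79.4, 109, 40.1 and 65.7 in single positive libraries 1, 2, 4 and 5. Double positive library 1 fell inside the range of single positive cells, yet SOAT1 passed the test (log2 fold change 1.799, SE 0.43, limma adjusted p = 0.0180). In the list of lipid droplet and fatty acid genes 1 of 16 rose. It was plin3, of a lipid droplet coat protein, with 815 ± 100.5 in double positive and 449 ± 124 in single positive cells (SD, n = 4 each, log2 fold change 0.90, limma adjusted p = 0.0319).

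Of 14 nuclear receptors and regulators, 2 rose. The gene rxrga, a retinoid X receptor gene whose protein family pairs with liver X receptors, averaged 128 ± 65.2 in double positive and 17.8 ± 24.5 in single positive cells (SD, n = 4 each, log2 fold change 3.54, limma adjusted p = 0.0174). The rxrga values overlapped between the populations, at 34.4 in double positive library 2 and 53.8 in single positive library 1. The other retinoid X receptor genes tested were not called (limma adjusted p from 0.285 to 0.990). Their log2 fold changes were 1.37 for RXRA, 1.40 for rxrgb, -0.033 for rxrbb and -0.73 for RXRB. No identifier matched the liver X receptor genes NR1H2 and NR1H3, so these were not measured here.

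ABCA7, a transporter gene of the same subfamily as ABCA1, went the other way. It had 0.529, 33.3, 16.0 and 12.0 normalized counts in double positive libraries 1, 2, 4 and 5 and 179, 77.3, 91.0 and 67.7 in single positive libraries 1, 2, 4 and 5 (log2 fold change -3.23, SE 0.83, limma adjusted p = 0.0263). Its populations did not overlap. PAX5, cd79a, ighm and cd37 of the B lymphocyte markers had the same direction and cd22 the opposite one, and their part in the ABCA7 value was not tested. The only other efflux gene tested, abca5, had a log2 fold change of -2.62 (limma adjusted p = 0.203).

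In the remaining lists 0 genes were called, with 0 at an unadjusted p under 0.05 by limma. These lists were thinly covered. Of 15 names of apolipoproteins and lipid transfer 2 matched an identifier, that of apoeb included, and of 20 names of cholesterol synthesis 3 did. Among 8 names of efflux transporters 3 matched, that of ABCA1 included. Genes without a match were not measured here. Clusterin CLU, the 1 tested gene among other apolipoproteins and lipid transfer proteins, had a log2 fold change of 0.26 (limma adjusted p = 0.958), which was -3.34 in batch 1 alone and 3.86 in batch 2 alone. Of cholesterol synthesis, IDI1 (-0.78) and FDPS (0.85) were tested, with mean values under 10 in both populations.

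How many of these 8 calls held when 1 library was left out differed by library. When double positive library 1, 2, 4 or 5 was left out, 8, 7, 3 and 1 of the 8 passed. Leaving out single positive library 1, 2, 4 or 5 let 6, 7, 2 and 3 of them pass. NPC1 was lost without double positive library 4 or 5 or single positive library 4 (adjusted p up to 0.0939). SOAT1 was lost without double positive library 2, 4 or 5 or single positive library 4 or 5 (adjusted p up to 0.105). NPC2 ENSDARG00000096979 and rxrga were each lost without double positive library 4 or 5 or single positive library 4 or 5 (adjusted p up to 0.184 and 0.138). The gene plin3 was lost without double positive library 4 or 5 or single positive library 1, 4 or 5 (adjusted p up to 0.1225), and ABCA7 without double positive library 5 or any of the single positive libraries (adjusted p up to 0.121). Without the mean-variance trend 0 of the 7 risen genes passed, with adjusted p from 0.0649 to 0.371 and 10 of the 68 genes higher at an unadjusted p under 0.05. ABCA7 did not pass in that fit either (limma adjusted p = 0.141).

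**Figure D3:**
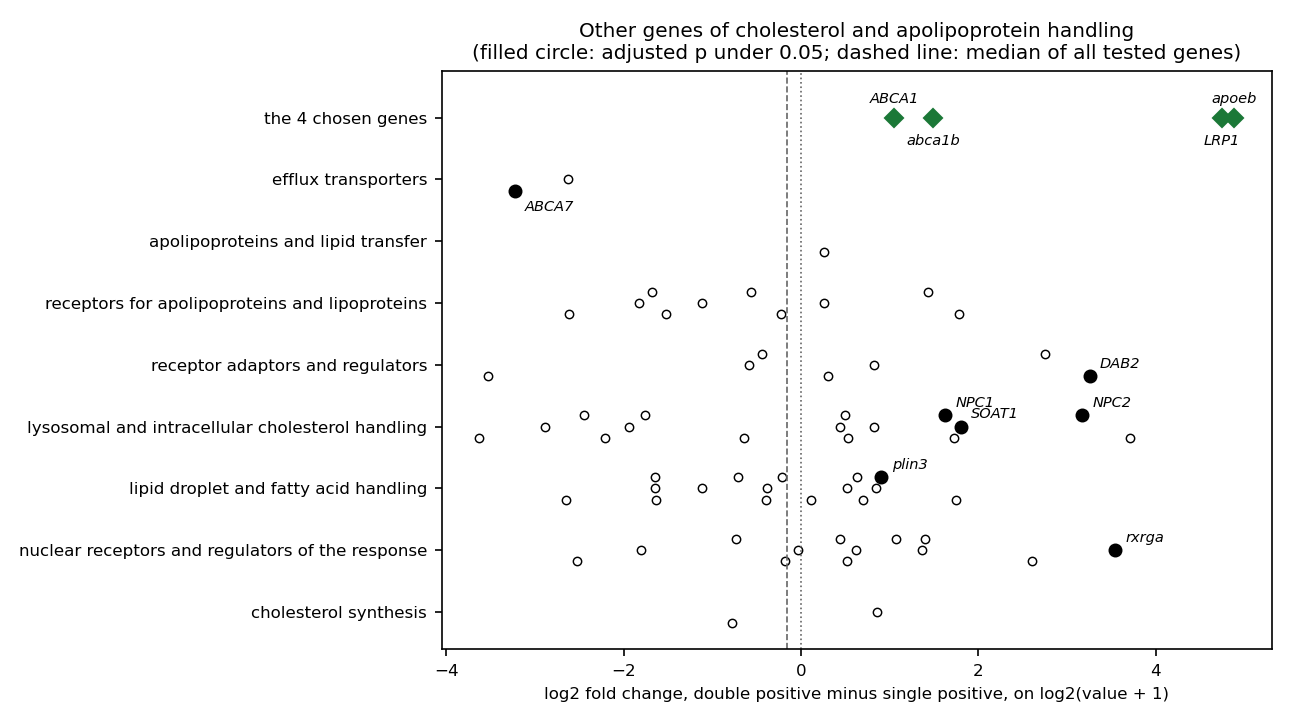
Log2 fold change of double positive over single positive cells on the log2(value + 1) scale, with the 4 chosen genes as green diamonds in the top row and other tested genes as circles by list, filled where adjusted p was under 0.05; 1 called gene is not drawn. Filled circles lie to the right of 0 except ABCA7 at -3.23, and most circles are open on both sides of 0.

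The 4 genes fell into pairs by their profiles over the 8 libraries. The root mean square difference between log2(value + 1) profiles, each centred on its own mean, was 0.92 between LRP1 and apoeb and 0.44 between abca1b and ABCA1. It was between 1.802 and 2.15 for the other combinations. The measure includes the population difference, which was known when the 4 genes were chosen. The pairs therefore largely restate log2 fold changes of 4.74 and 4.88 against 1.49 and 1.05, and are no separate result. The genes of most similar profile were named by the same measure. It takes in the size of the population difference and the value of every library. Genes found by it therefore share by construction both that difference and the order of libraries within a population, and the library patterns given below are no separate result.

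For LRP1 these were lgals3bp.1 (0.40), olmf4l1 (0.48), MFAP4 ENSDARG00000038681 (0.48) and ACOD1 (0.55). lgals3bp.1 had 67.7, 142, 186 and 195 normalized counts in double positive libraries 1, 2, 4 and 5 and 12.1, 14.2, 1.00 and 1.00 in single positive libraries 1, 2, 4 and 5. As with LRP1, single positive libraries 4 and 5 were the lowest. For apoeb they were MFAP4 ENSDARG00000090557 (0.54), ENTPD2 (0.72), TNIK (0.76) and lgals3bp.1 (0.83), and like apoeb each was highest, among single positive libraries, in library 2. lgals3bp.1 and the MFAP4 genes, which encode secreted proteins, also stand on the macrophage marker list.

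For abca1b the nearest profiles were those of tnfrsf9b (0.26), FES (0.26), FGL2 (0.27) and ATP6V0D1 (0.29), and each was lowest in single positive library 4. For ABCA1 they were itgae.2 (0.090), maff (0.12), krt18b (0.15) and SLC43A3 (0.16). itgae.2 had 1132, 1075, 1051 and 1409.5 normalized counts in double positive libraries 1, 2, 4 and 5 and 649, 705, 326 and 539 in single positive libraries 1, 2, 4 and 5. The measure grows with the spread of a profile. The SD over the 8 libraries was 0.65 for ABCA1, 0.94 for abca1b, 2.72 for LRP1 and 2.86 for apoeb. The distances to the nearest genes are therefore not compared between the 4 genes.

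**Figure D4:**
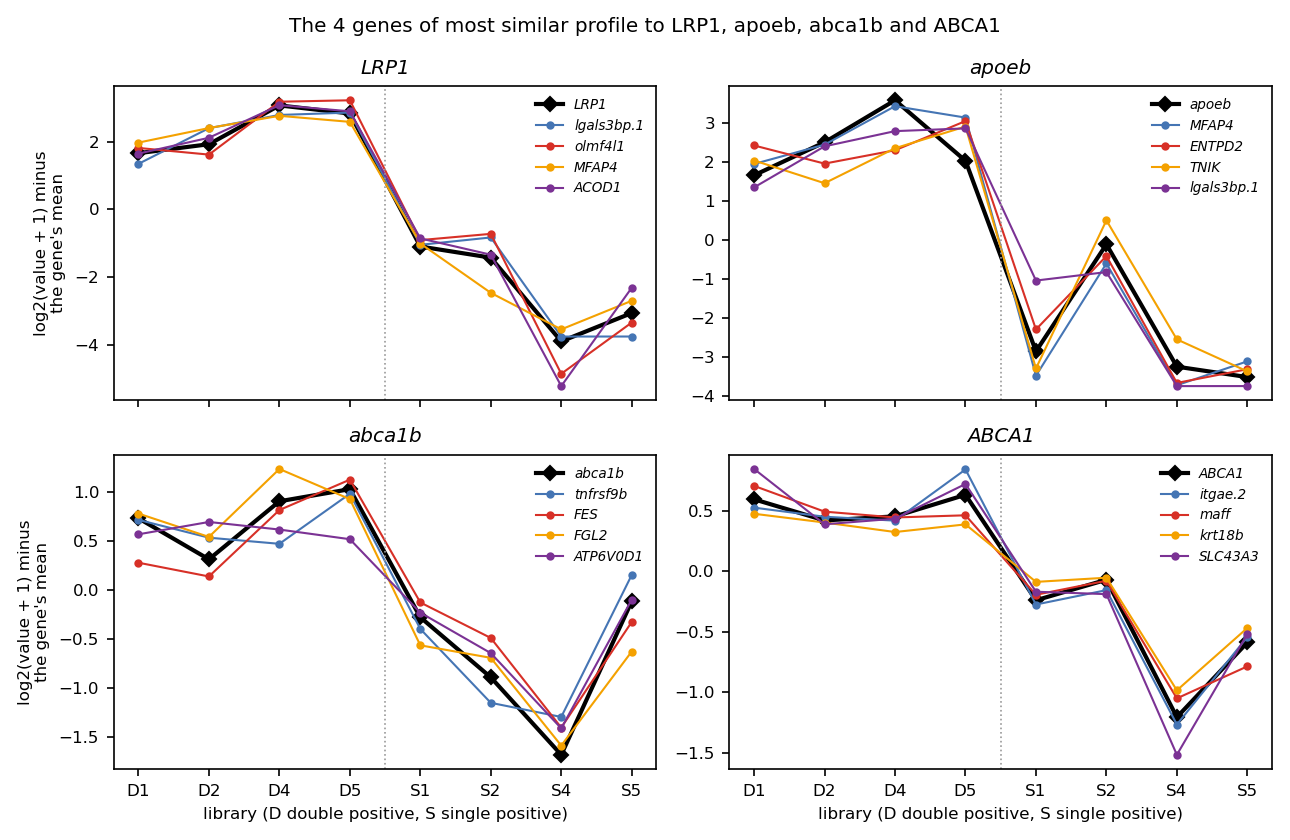
Centred log2(value + 1) values of LRP1, apoeb, abca1b and ABCA1 (black diamonds) and the 4 genes of smallest root mean square difference from each (coloured circles), over double positive libraries D1 to D5 at left and single positive libraries S1 to S5 at right; lines only join the points of a gene. The curves drop between D5 and S1 in each panel, and S2 stands up in the apoeb panel while S4 is lowest in the abca1b and ABCA1 panels.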

How the data were processed

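The authors deposited 1 table of normalized counts, a signal on a linear scale with 1 column per library. The submitters' processing notes list RSEM 1.2.3, CASAVA 1.8.2, cutadapt and build Zv9. They state neither the normalization nor the annotation nor a gene filter. No deposited value is 0 and read depth is unknown, so no counting interval is given. Over all genes, batch 2 minus batch 1 had a median of 0.00062 on the log2 scale over both populations. If the values had been adjusted for batch before deposit, standard errors may be too small.

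Tests covered 10127 genes that reached 1 per 1000000 of the column total in 4 or more of the 8 libraries, and 352 were left out. They ran on log2(value + 1) with limma 3.58.1 in R 4.3.3 under a mean-variance trend, with the library batch as covariate, two-sided, with Benjamini-Hochberg adjustment over all tested genes. The interaction of population and batch had 4 residual degrees of freedom. The code was tested on simulated data. The members, lists and tests were chosen with earlier results of these data known. Symbols came from a table that matched 8512 identifiers. The named genes are the 4 members, each called list gene (or the 2 of highest mean), and 4 genes of similar profile per member. The values of 1 called list gene are not reported here. NPC2 ENSDARG00000090912, abca5, lrp1ba, RXRA, rxrgb, rxrbb and RXRB were named after their values were seen. Alternatives were other pseudocounts, filters and scalings, no batch covariate, a replicate block, no trend, each batch alone and leaving out each library.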

Additional observations from a re-analysis of the deposited data

Results flagged for a closer look

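In 64 sets of 4 libraries (each gene named by rule, in each population), 7 had 1 library far from the other 3 by the 95% limit of Dixon's test. Normally distributed values reach that limit in about 1 of 20 sets. It was applied to normalized counts on the linear scale, which need not be so distributed, so the 7 are not set against that rate. Single positive library 2 was the high one for apoeb (10.9, while the other 3 had 0.125 to 0.779), MFAP4 ENSDARG00000090557 (10.8, against 0.348 to 1.06) and TNIK (20.5, against 0.466 to 1.59). Double positive library 1 was the low one for lrp10 (21.5, against 98.2 to 101) and SOAT1 (97.7, against 319 to 344). Double positive library 2 was high for FDPS (26.1, against 0.325 to 4.27), and single positive library 4 was low for FGL2 (277, against 516 to 563). MFAP4, TNIK and FGL2 were named for profiles near those of apoeb or abca1b, and are not independent of them.

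The population difference differed between the library batches, by the interaction test, for LRP1 (3.38 on the log2 scale). This call was lost with columns scaled to the same total, with median centring, without the mean-variance trend and without most single libraries, as given above. It was kept with quantile normalization. The same test called olmf4l1 (4.77), which was named for a profile near that of LRP1, batches included, so it is not a separate finding, and no alternative was run for it.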

How the results depend on the processing

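Each of the 4 genes kept the sign of its log2 fold change under the alternatives run. Values moved by more than the pooled SD for apoeb with a pseudocount of 5 (3.40), and in batch 1 and batch 2 alone for LRP1 (3.05 and 6.43), apoeb (3.57 and 6.20) and ABCA1 (0.66 and 1.44). Leaving out 1 library gave 169 to 497 higher and 101 to 308 lower genes, 1 to 11 risen and 0 to 3 fallen pathway genes, and 0 to 208 interactions. Higher genes numbered 169 without double positive library 5, 176 without double positive library 4, and 248 and 259 without single positive library 4 and 5. Lower genes numbered 145 and 101 without double positive library 4 and 5 and 109 to 136 when any of the single positive libraries was left out. Interactions numbered 208 without double positive library 2.

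Batch 1 alone gave 0 higher and 0 lower genes (by limma, 424 and 940 at unadjusted p under 0.05) and 0 risen and 0 fallen pathway genes (4 and 6), with 2 libraries per population. Batch 2 alone gave 152 lower genes and 0 fallen pathway genes (7 unadjusted). A fit with no mean-variance trend gave 124 higher genes, 0 risen pathway genes (10 unadjusted), 3 fallen and 0 interactions (976 unadjusted). ABCA7 was not among the 3 fallen genes of that fit. Fallen pathway genes were 2 with a pseudocount of 0.5 or 5 or a filter minimum of 10, 3 with columns scaled to the same total or quantile normalization, and 5 with no batch covariate. Interactions were 18 with median centring and 48 with quantile normalization.

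The interaction of LRP1 was 3.17 with equal totals, 2.79 with median centring and 3.38 without the trend, with adjusted p above 0.05, and ran from 2.96 to 3.80 without 1 library. That of abca1b was -0.024 when single positive library 4 was left out and 1.54 when library 5 was. The fold change of CLU was -3.34 in batch 1 alone, -0.47 and -0.45 without double positive library 4 or 5 and -0.080 and -0.84 without single positive library 4 or 5. Its fold change ran from -0.84 to 1.34 when 1 library was left out and from -3.34 to 3.86 over all alternatives. That of FDPS ran from -0.14 without double positive library 2 to 1.60. The cause of these changes was not tested.

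Libraries of equal replicate number deviated from their population means with correlations of -0.292 to -0.112, and from their population and batch means with correlations of 0.000140 to 0.0147. No pairing by number was seen. The opposite batch shifts enter the first correlations. With 2 libraries per population and batch, the second give only 1 value per batch, so whether the numbers pair the libraries is not settled. With a replicate block 297 genes were higher and 176 lower, and 5 pathway genes rose, with NPC2 ENSDARG00000096979 (adjusted p = 0.0518) and plin3 (adjusted p = 0.0541) no longer called.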

Other observations

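Of the 68 tested list genes, called or not, 7 had every double positive library above every single positive one, and 6 the reverse. Over all 10127 tested genes these numbered 721 and 709. Some list genes had populations that did not overlap, yet did not pass the test. Those described here were named after their values were seen. The others were TMEM97, GRAMD1B, pparg and PPARD ENSDARG00000044525, which are not described. OSBP, an oxysterol-binding protein that exchanges lipids between membranes, had 53.8, 96.1, 97.6 and 83.3 normalized counts in double positive libraries 1, 2, 4 and 5 and 30.8, 26.5, 25.2 and 15.3 in single positive libraries 1, 2, 4 and 5 (limma adjusted p = 0.0513). MYLIP ENSDARG00000008859, whose mammalian counterpart marks LDL receptors for degradation, averaged 1.74 ± 2.80 in double positive and 22.2 ± 3.44 in single positive cells (SD, n = 4 each, limma adjusted p = 0.0797). Another identifier, MYLIP ENSDARG00000055118, overlapped between the populations and had a log2 fold change of 0.30 (limma adjusted p = 0.934). cpt1ab, of mitochondrial fatty acid import, averaged 9.27 ± 6.31 in double positive and 56.3 ± 23.0 in single positive cells (SD, n = 4 each, limma adjusted p = 0.0502).

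Other marker lists gave these sums of normalized counts. Neutrophil markers summed to 1202 to 2122 in double positive and 675 to 854 in single positive libraries, most of it NCF1. Of the 4 matched, NCF1 and CSF3R rose and mmp13a and MYD88 were not called, while 3.88% of all tested genes were higher. The markers MPX, LYZ and LECT2L matched no identifier, so these sums do not measure neutrophils well. Endothelial markers summed to 91.6 to 195 in double positive and 107.5 to 350.5 in single positive libraries, and cardiomyocyte markers to 13.3 to 132 in double positive and 26.3 to 155 in single positive libraries. Thrombocyte markers summed to 6.55 to 28.1 in double positive and 0.226 to 25.2 in single positive libraries. The erythroid gene gata1a had 0.275 to 15.6 in double positive and 0.294 to 11.8 in single positive libraries, and il2rb of lymphocytes had 0.208 to 0.957 in double positive and 0.919 to 25.4 in single positive libraries. Their part in the results was not tested.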
